A study of Mus musculus with 6 samples.

Results

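Cholesterol synthesis and its control by SREBP2 were followed through 26 genes in primary mouse hepatic stellate cells. The genes were picked by symbol from a list of pathway members, each matched a single row of the deposited table, and they are 26 of the 56691 genes listed there. Of them, 3 supply acetyl-CoA and its first condensation product, 7 carry carbon through mevalonate to the prenyl diphosphates, 3 turn those into lanosterol, 9 convert lanosterol to cholesterol, and 4 sense sterols. All 26 were among the 15987 genes with enough counts to be tested.

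Hepatic stellate cells store vitamin A beside the liver sinusoids, and TGF-beta is the cytokine that drives them to become matrix-producing myofibroblasts. K-80003 is a code-named compound, and the title of the study names the nuclear receptor RXRα and the CaMKKβ-AMPKα kinases. Poly(A) RNA was sequenced from wild-type liver cells in 3 groups of 2 libraries: untreated Control cells, TGF-beta-treated cells, and cells that received both TGF-beta and K-80003 (the K-80003 group here). No group received the compound without TGF-beta, so the compound can be read only in cells that also had the cytokine. The labels as used here give no dose, time, sex, age or strain, and do not say whether libraries of a group came from separate animals or cultures, so p-values measure the spread between these libraries, which may be technical.

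Cells make cholesterol from acetyl-CoA by way of mevalonate, squalene and lanosterol, in the cytosol and the endoplasmic reticulum. When sterols in the endoplasmic reticulum are low, SCAP escorts the precursor of the transcription factor SREBP2 (gene Srebf2) to the Golgi, where it is cut, and its released part switches on nearly all genes of the route. When sterols are high, INSIG proteins hold SCAP back and transcription of the pathway falls; Insig1 is itself an SREBP target. In stellate cells, cholesterol content is known as a modifier of how strongly the cells respond to TGF-beta.

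The libraries held between 15646093 and 19004144 counts, and 3 counts corresponded to between 0.157 and 0.188 CPM, the scale used below (counts relative to the library's TMM-scaled sum). The least abundant member, Tm7sf2, had at least 118 counts in every library. Within a group the libraries differed beyond sampling noise (chi-square per degree of freedom 20.2 to 51.0 over genes) and were counted as separate replicates. The 8 stellate cell markers were all detected in every library, led by Dcn and Reln. Their summed level was 8630 to 10593 CPM in Control, 7646 to 8908 with TGF-beta and 4217 to 5223 in the K-80003 group. There, 6 of 8 were lower than with TGF-beta alone (edgeR adjusted p under 0.05). Proliferation markers were lower too, 5 of 7, with summed levels of 332 to 338 CPM with TGF-beta and 137 to 139 CPM with K-80003. In that comparison, 7.32% of all genes tested were called lower and 2.78% higher. Sinusoidal endothelial markers summed to 406 to 581 CPM in Control, 294 to 412 CPM with TGF-beta and 580 to 703 CPM with K-80003, led by Cdh5. Of these 7, Pecam1 and Kdr were called higher with K-80003 than with TGF-beta, while Lyve1 was called lower, from 1.87 and 2.71 CPM to 0.0524 and 0.117 CPM, which is under 3 counts. Hepatocyte markers summed to 106 to 244 CPM, most of it Ass1. In K-80003 replicate 2, Ass1 made up 109 of 147 CPM. Tat was at 0 in all libraries but that one, which had 23 counts of it and 416 of Alb against 56 in K-80003 replicate 1. Cholangiocyte markers stood at 451 to 589 CPM in Control and 123 to 194 CPM in the other groups. Mesothelial markers (9.07 to 39.4 CPM), macrophage markers (15.1 to 27.0 CPM) and lymphocyte and neutrophil markers (0.313 to 0.82 CPM) were low. These bulk values cannot tell fewer cells of a type from less RNA per cell, and the part of these markers in the results below was not tested.

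Per length, the route ran at moderate and uneven levels. On the FPKM scale (reads scaled to exonic length and to the library's total), the mean over all 6 libraries was highest for Acly at 43.1, followed by Insig1 at 38.8 and Hmgcs1 at 32.0. Acly makes cytosolic acetyl-CoA from citrate, and Hmgcs1 makes HMG-CoA, the substrate of the rate-limiting step. Cyp51 (28.8 FPKM), Msmo1 (23.8) and Sc5d (20.8), which work on the sterol ring after lanosterol, came next together with Srebf2 (21.6). Most of the remaining enzymes lay between 9.37 FPKM (Mvd) and 15.3 FPKM (Ebp). The lowest were Lss at 5.47, Idi1 at 4.80, Dhcr7 at 4.56, Acss2 at 3.33 and Tm7sf2 at 2.04 FPKM. Tm7sf2 and Lbr both reduce the sterol ring at the same step, and Lbr, at 9.68 FPKM, was the more abundant in every group. Neighbours in this order often exchanged places between libraries: Insig1 ranked below Hmgcs1 in Control and TGF-beta and above it in the K-80003 group.

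**Figure D1:**
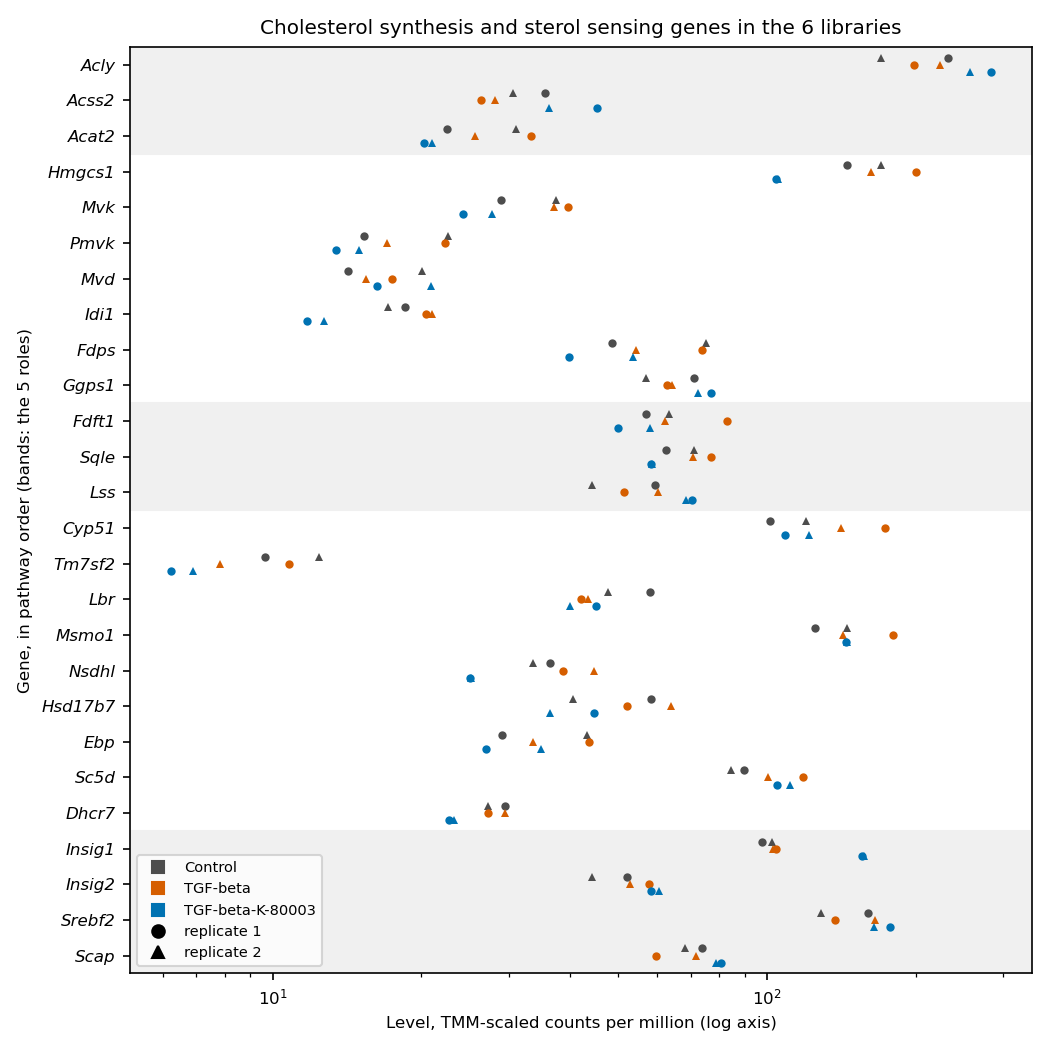
Levels of the 26 genes in each library as TMM-scaled CPM on a log axis, with genes in pathway order on the vertical axis, shaded bands for the roles, colours for the groups, and circles and triangles for replicates 1 and 2. The K-80003 libraries (blue) lie to the left of both TGF-beta libraries (orange) for 13 genes and to the right for 7, and Insig1 stands at 155 to 157 CPM against 97.7 to 104 CPM in the other libraries.

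Summed over all 26 genes, the level was 1730 and 1707 CPM in Control, 1949 and 1841 CPM with TGF-beta, and 1815 and 1812 CPM with K-80003. The 19 enzymes from mevalonate to cholesterol summed to 1057 and 1132 CPM in Control, 1333 and 1171 CPM with TGF-beta, and 994 and 1037 CPM with K-80003. The 4 sterol-sensing genes summed to 383 and 343 CPM in Control, 358 and 393 CPM with TGF-beta, and 472 and 460.5 CPM with K-80003. The enzymes were thus lowest, and the sensing genes highest, in the K-80003 libraries. The total for the route was lowest in Control and highest with TGF-beta, without overlap between any 2 groups.

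Control and TGF-beta libraries were compared first, for what the cytokine did to the route. No member passed the test: 0 of 26 were called by edgeR's quasi-likelihood test (adjusted p under 0.05), as by DESeq2 and by limma, against 2.94% of all genes tested (1.06% higher and 1.88% lower). At an unadjusted p under 0.05 there was 1, Cyp51, beside 2353 of the 15987 genes tested. The median log2 fold change of the members was 0.10, beside 0.01 for all genes tested, with 20 members above 0 and 6 below. Under limma on log2(FPKM + 1) the members' median was -0.00487, beside -0.07 for all genes tested, so its sign depended on the scale, which moved both medians down. Libraries of TGF-beta lay above both Control libraries for 6 members (background 18.5%) and below both for 2 (background 19.8%).

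Cyp51, the lanosterol 14-alpha-demethylase that takes the first step from lanosterol (ENSMUSG00000001467, GRCm39 chromosome 5, 4131145 to 4154746), had 101 and 119.95 CPM in Control, and 173 and 141 CPM with TGF-beta. Both TGF-beta libraries were above both Control libraries, and the log2 fold change was 0.51 (SE 0.18, edgeR adjusted p = 0.242). Its 3′ neighbour Akap9 overlaps it by 166 bases on the opposite strand. Whether counting used strand is not stated in the sources used here, and some of its reads may belong to Akap9. Sc5d, which introduces the double bond at carbon 5 of the ring, stood at 89.7 and 84.6 CPM in Control and 118 and 100.2 CPM with TGF-beta (0.32, SE 0.15, edgeR adjusted p = 0.41). At the other end, Lbr, the lamin B receptor with sterol reductase activity, had 58.0 and 47.8 CPM in Control and 42.0 and 43.3 CPM with TGF-beta (-0.31, SE 0.16, edgeR adjusted p = 0.469). The transcription factor gene Srebf2 had 160.0 and 128 CPM in Control and 137 and 165 CPM with TGF-beta, which overlap. Its difference of 0.07 on the log2 scale had a 95% interval from -0.36 to 0.50, which leaves room for changes of either sign.

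The K-80003 group was set against TGF-beta alone for the effect of adding the compound to cytokine-treated cells. Hmgcs1 and Idi1, of the mevalonate segment, and Nsdhl, of the steps after lanosterol, were lower, and Insig1 was higher. Of the 26 genes, 4 were called by edgeR (15.4%, against 10.1% of all genes tested): Hmgcs1, Idi1 and Nsdhl fell (background 7.32%) and Insig1 rose (background 2.78%). The share called is near the background, so the count alone sets the route apart little. The median log2 fold change was -0.31, beside 0.01 over all genes tested, with 17 members below 0 and 9 above. The K-80003 libraries lay below both TGF-beta libraries for 13 members (background 26.8%) and above both for 7 (background 24.6%). By role, all 9 genes from lanosterol to cholesterol were below 0 (1 called, median -0.32), as were 5 of 7 from mevalonate to the prenyl diphosphates (2 called, median -0.47) and 2 of 3 from squalene to lanosterol (0 called by edgeR, DESeq2 and limma, 0 at an unadjusted p under 0.05, median -0.34), while the 4 sensing genes were all above 0 (1 called, median 0.23). Of the 9, Lbr and Sc5d were at -0.0062 and -0.01 and changed sign under other scalings. Over all genes tested, 3643 of 15987 had an unadjusted p under 0.05 in this comparison.

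**Figure D2:**
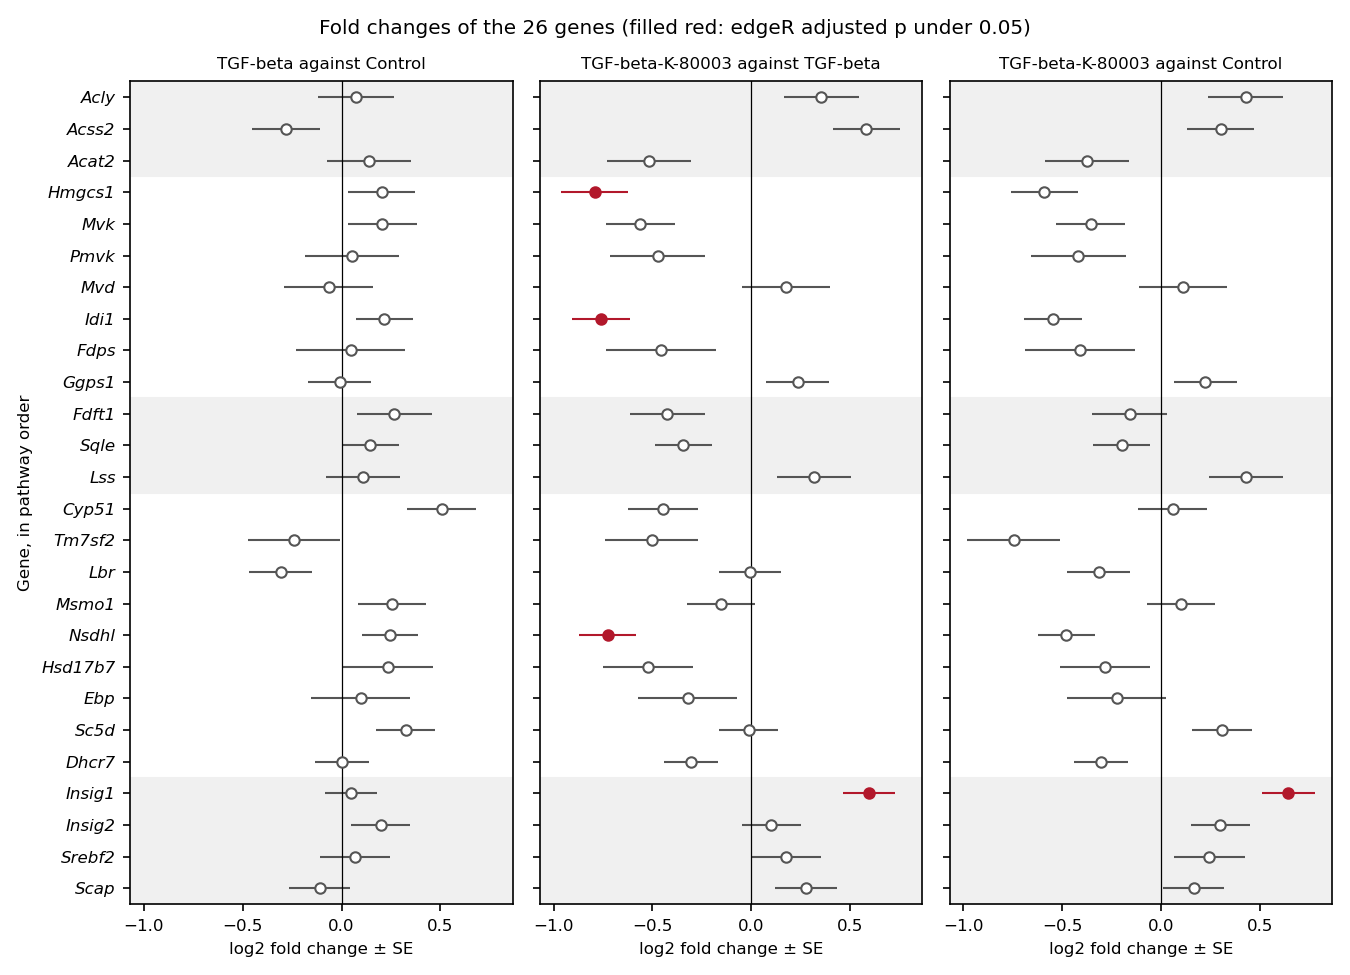
Log2 fold change with its SE for the 26 genes in the 3 comparisons, from edgeR's fit to all 6 libraries, with genes in pathway order and shaded bands for the roles; filled red points had an adjusted p under 0.05. In the middle panel 16 of the 19 enzymes from mevalonate to cholesterol lie below 0 and the 4 sensing genes lie above it. Neighbouring panels share libraries and are not independent.

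Hmgcs1 encodes the cytosolic HMG-CoA synthase (ENSMUSG00000093930, GRCm39 chromosome 13, 120151915 to 120169796). Its level was 145 and 169.8 CPM in Control, 200.3 and 162 CPM with TGF-beta, and 104 and 105 CPM with K-80003. Both K-80003 libraries were below the other 4, while Control and TGF-beta overlapped. Against TGF-beta it fell by 0.79 on the log2 scale, to 0.578 of the level (95% interval of the log2 fold change -1.20 to -0.38, SE 0.17, edgeR adjusted p = 0.0335). Idi1, which isomerizes isopentenyl diphosphate so that chain building can start (ENSMUSG00000058258, GRCm39 chromosome 13, 8935537 to 8942487), had 18.5 and 17.1 CPM in Control, 20.5 and 21.0 CPM with TGF-beta, and 11.7 and 12.7 CPM with K-80003. The K-80003 libraries were again the lowest, at 0.59 of the TGF-beta level (-0.76, SE 0.15, 95% interval -1.11 to -0.41, edgeR adjusted p = 0.0237). Its close paralog Idi2 had 6 counts over all libraries.

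Nsdhl, a sterol dehydrogenase of the complex that removes the methyl groups at carbon 4 (ENSMUSG00000031349, GRCm39 chromosome X, 71962163 to 72002120), had 36.5 and 33.7 CPM in Control, 38.6 and 44.6 CPM with TGF-beta, and 25.1 and 25.2 CPM with K-80003. No library of K-80003 reached any other library, and the level was 0.605 of that with TGF-beta (-0.73, SE 0.14, 95% interval -1.07 to -0.38, edgeR adjusted p = 0.0263). Its partners in that complex, Msmo1 and Hsd17b7, did not pass the test. Msmo1, the methyl oxidase, had 179 and 142 CPM with TGF-beta and 144 and 145 CPM with K-80003, which overlap (-0.15, edgeR adjusted p = 0.684). Hsd17b7, the 3-keto reductase, had 52.2 and 64.1 CPM with TGF-beta and 44.7 and 36.3 CPM with K-80003 (-0.52, edgeR adjusted p = 0.244).

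Insig1, the endoplasmic reticulum protein that retains SCAP when sterols are high (ENSMUSG00000045294, GRCm39 chromosome 5, 28276361 to 28283660), moved the other way. It stood at 97.7 and 102 CPM in Control, 104 and 103 CPM with TGF-beta, and 155 and 157 CPM with K-80003. The K-80003 libraries were above the other 4, and replicates lay close together in every group. Against TGF-beta the level was 1.51-fold higher (log2 fold change 0.60, SE 0.13, 95% interval 0.27 to 0.92, edgeR adjusted p = 0.0392). Insig2, its homolog, had 57.7 and 52.8 CPM with TGF-beta and 58.3 and 60.3 CPM with K-80003 (0.10, 95% interval -0.26 to 0.46, edgeR adjusted p = 0.765). Srebf2 had 137 and 165 CPM with TGF-beta and 178 and 164 CPM with K-80003, which overlap (0.18, 95% interval -0.25 to 0.60, edgeR adjusted p = 0.648). Scap had 59.5 and 71.95 CPM with TGF-beta and 80.5 and 78.8 CPM with K-80003, without overlap (0.28, 95% interval -0.10 to 0.65, edgeR adjusted p = 0.363).

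These 4 calls rested on every library of the comparison. With any TGF-beta or K-80003 library left out, 0 of 26 members were called, and the adjusted p over these fits ran from 0.0526 (Hmgcs1 without TGF-beta replicate 2) to 0.291 (Insig1 without K-80003 replicate 2). The fold changes themselves kept their sign. They ran between -0.98 and -0.62 for Hmgcs1, which moved most, -0.82 and -0.71 for Idi1, -0.82 and -0.66 for Nsdhl, and 0.54 and 0.62 for Insig1. Hmgcs1, Idi1 and Nsdhl were still called without either Control library, and Insig1 was not (adjusted p = 0.0577 and 0.0704).

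**Figure D3:**
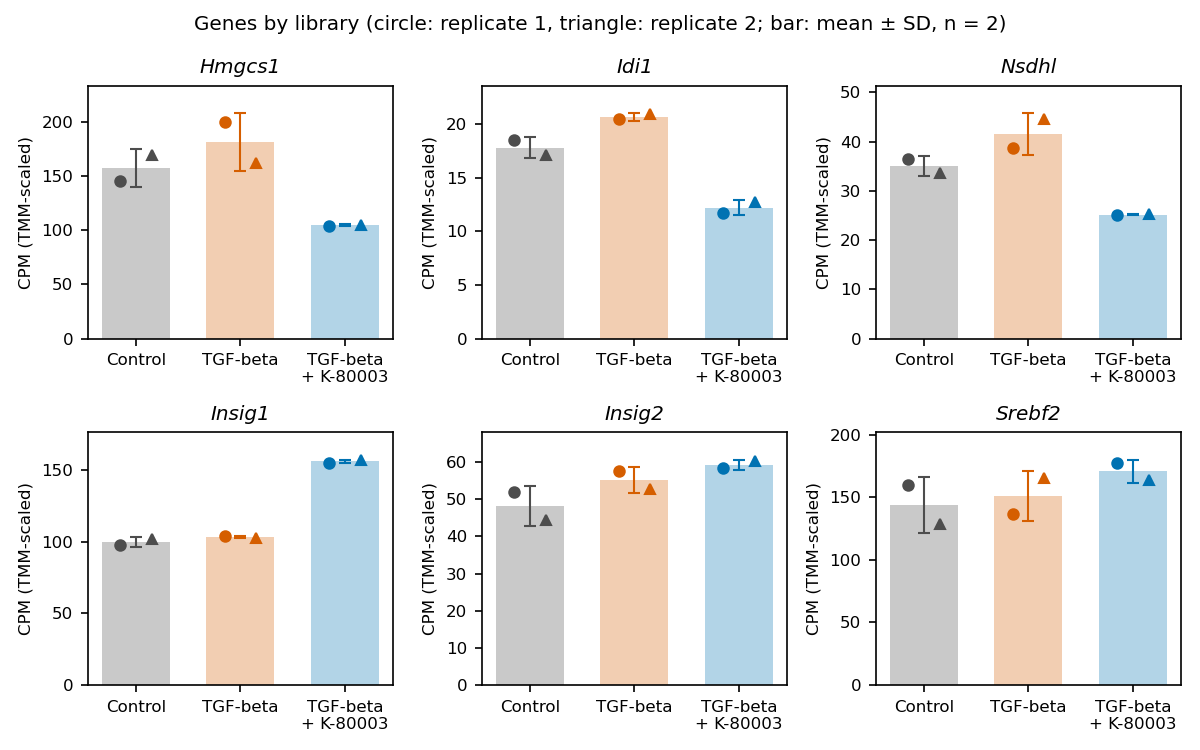
TMM-scaled CPM of the 4 genes called in the comparison of K-80003 with TGF-beta, and of Insig2 and Srebf2, in each group; bars are means, error bars SD (n = 2), circles and triangles replicates 1 and 2, and the vertical axes start at 0. Hmgcs1, Idi1 and Nsdhl are lowest and Insig1 highest in both K-80003 libraries, while the Srebf2 libraries of TGF-beta and K-80003 overlap.

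Promoter sequence is shown for the called genes, since SREBP2 acts at sterol elements that usually stand beside boxes bound by NF-Y and Sp1. The windows come from RefSeq on GRCm38.p6, run from 250 bases before to 50 after the annotated start, and are written 5′ to 3′ along the gene. Capitals mark the sterol element TCACNCCAC and the NF-Y box CCAAT, searched on both strands (ATTGG is the box on the other strand). All 4 genes lie on the plus strand: Hmgcs1 at chr13:119690101-119690400, Idi1 at chr13:8885356-8885655, Nsdhl at chrX:72918271-72918570 and Insig1 at chr5:28071162-28071461.
Hmgcs1: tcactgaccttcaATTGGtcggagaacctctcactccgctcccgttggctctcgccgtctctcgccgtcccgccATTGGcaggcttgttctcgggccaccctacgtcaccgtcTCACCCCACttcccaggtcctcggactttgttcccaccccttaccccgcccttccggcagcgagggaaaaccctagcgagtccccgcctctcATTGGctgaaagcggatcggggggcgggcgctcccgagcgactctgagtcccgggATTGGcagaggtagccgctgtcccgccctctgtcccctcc
Idi1: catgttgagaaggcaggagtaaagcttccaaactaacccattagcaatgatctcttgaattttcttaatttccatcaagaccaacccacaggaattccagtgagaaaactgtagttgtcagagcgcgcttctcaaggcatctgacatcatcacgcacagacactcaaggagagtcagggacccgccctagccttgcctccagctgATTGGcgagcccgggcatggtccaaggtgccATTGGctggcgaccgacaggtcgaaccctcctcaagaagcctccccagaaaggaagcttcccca
Nsdhl: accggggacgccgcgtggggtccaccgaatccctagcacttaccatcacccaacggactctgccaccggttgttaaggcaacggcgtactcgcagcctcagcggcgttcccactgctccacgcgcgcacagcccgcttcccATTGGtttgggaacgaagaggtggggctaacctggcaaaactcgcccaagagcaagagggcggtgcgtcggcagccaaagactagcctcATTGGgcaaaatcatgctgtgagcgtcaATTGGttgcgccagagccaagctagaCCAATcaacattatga
Insig1: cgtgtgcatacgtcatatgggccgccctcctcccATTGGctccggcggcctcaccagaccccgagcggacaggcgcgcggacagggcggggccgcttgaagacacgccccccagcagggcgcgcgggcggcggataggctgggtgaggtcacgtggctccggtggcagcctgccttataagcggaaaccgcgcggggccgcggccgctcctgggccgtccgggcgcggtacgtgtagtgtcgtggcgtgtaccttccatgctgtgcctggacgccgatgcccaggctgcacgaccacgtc

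The Hmgcs1 window held the sterol element in full, 137 bases before the start, with 4 NF-Y boxes, and the Nsdhl window also held 4. The Idi1 window held 2 NF-Y boxes and the Insig1 window 1. The other genes had no exact match to the sterol element, which says only that these letters are not in the window. A window was found for 23 of 26 members; Fdft1, Fdps and Sqle are named only. Among the 23, the sterol element was in 1 (4.35%, exact 95% binomial interval 0.11% to 21.9%), beside 1.44% of 27025 genes with a window of this length. The NF-Y box was in 21 (91.3%, beside 42.3% of 17492 protein-coding genes) and the Sp1 box GGGCGG, also on both strands, in 21 (91.3%, beside 49.2%). No window of Acat2 or Scap held the NF-Y box and none of Ggps1 or Pmvk the Sp1 box; these 4 genes did not pass the test, nor did most genes with both boxes.

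Members that did not pass the test had values on both sides of 0. In acetyl-CoA supply, Acss2, which activates acetate, had 26.4 and 28.1 CPM with TGF-beta and 45.4 and 36.2 CPM with K-80003. Its log2 fold change of 0.58 (SE 0.17) had an edgeR adjusted p of 0.0906. Acss2 lies over much of Gss on the opposite strand (22544 bases of gene body), so its counts are uncertain without the strand setting. Acly had 198 and 224 CPM with TGF-beta and 284 and 257 CPM with K-80003 (0.36, edgeR adjusted p = 0.345). Acat2, the thiolase that joins 2 acetyl-CoA, had 33.3 and 25.6 CPM with TGF-beta and 20.3 and 21.0 CPM with K-80003 (-0.52, edgeR adjusted p = 0.216).

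In the mevalonate segment, Mvk, the kinase that phosphorylates mevalonate, had 39.5 and 37.1 CPM with TGF-beta and 24.2 and 27.7 CPM with K-80003, without overlap (-0.56, SE 0.17, edgeR adjusted p = 0.108). Pmvk, the next kinase, had a log2 fold change of -0.47, and Fdps, which makes farnesyl diphosphate, of -0.46 (edgeR adjusted p = 0.315 and 0.406). Mvd, the decarboxylase between them, overlapped between groups (0.18, adjusted p = 0.729). Ggps1, which draws farnesyl diphosphate away to geranylgeranyl diphosphate, was at 0.23 (adjusted p = 0.469). Fdft1 and Sqle, which make squalene and its epoxide, were at -0.42 and -0.34 (edgeR adjusted p = 0.254 and 0.225), and Lss, the cyclase that forms lanosterol, at 0.32 (adjusted p = 0.386). Fdft1 shares 774 bases with the abundant Ctsb on the opposite strand, which had 130182 counts over all libraries against 6418 for Fdft1, so its values are uncertain.

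Among the late enzymes, Cyp51 had 173 and 141 CPM with TGF-beta and 109 and 122 CPM with K-80003, close to the 101 and 119.95 CPM of Control (-0.45 against TGF-beta, edgeR adjusted p = 0.193). Tm7sf2 had 10.8 and 7.83 CPM with TGF-beta and 6.24 and 6.92 CPM with K-80003 (-0.50, adjusted p = 0.276), and shares 532 bases with Vps51 on the same strand. Ebp, the isomerase of the ring double bond, was at -0.32 with overlapping libraries, and Dhcr7, which completes cholesterol on one branch, at -0.30 without overlap (edgeR adjusted p = 0.533 and 0.26).

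Doubly treated cells were also set against untreated ones. Of 26 members, 1 was called by edgeR (3.85%, against 17.3% of all genes tested, 5.54% higher): Insig1 was 1.56-fold higher (0.64, SE 0.13, 95% interval 0.32 to 0.97, adjusted p = 0.0211). The call was lost with any of the 6 libraries left out (adjusted p = 0.0568 to 0.178). No member fell past the threshold by edgeR on TMM scaling; 4 members lower than Control came near it, Idi1 (-0.54, adjusted p = 0.0505), Hmgcs1 (-0.59, 0.0608), Nsdhl (-0.48, 0.07) and Tm7sf2 (-0.75, 0.0806). DESeq2 called 1 of these, Hmgcs1 (adjusted p = 0.0328), and limma called 0. An unadjusted edgeR p under 0.05 and a level below Control were found for 4 of 26. In either direction, 5 of 26 members and 4834 of 15987 genes tested had such a p. The median was -0.18, beside 0.02 over all genes tested; 10 members lay below both Control libraries (background 28.1%) and 9 above both (background 27.4%). All 4 sensing genes lay above both Control libraries, with Insig2 at 0.30, Srebf2 at 0.25 and Scap at 0.17 on the log2 scale (edgeR adjusted p = 0.241, 0.431 and 0.551).

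The replicates of a group differed along gene length, which bears on how firmly single members can be read. The log2 ratio of replicate 1 to replicate 2 ran from -0.62 to 0.52 over the 26 genes in Control, from -0.29 to 0.43 in TGF-beta and from -0.42 to 0.32 in K-80003 libraries. Fdps, for example, had 48.6 and 75.3 CPM in Control, 73.7 and 54.3 CPM with TGF-beta and 39.8 and 53.6 CPM with K-80003. Over the members, the rank correlation (Spearman's rho) of that ratio with exonic length was 0.63 in Control, -0.55 in TGF-beta and 0.70 in K-80003 libraries, beside 0.48, -0.46 and 0.44 over the 15987 genes tested. Replicate 1 thus had relatively more of the long transcripts in Control and K-80003 and relatively less with TGF-beta. The rank correlation of length with the log2 fold change over the members was -0.13 for TGF-beta against Control and 0.46 for K-80003 against TGF-beta, beside 0.01 and 0.07 over all genes. The part of this in the members' results was not tested. These are descriptions across genes of the same libraries, which are not independent replicates.

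**Figure D4:**
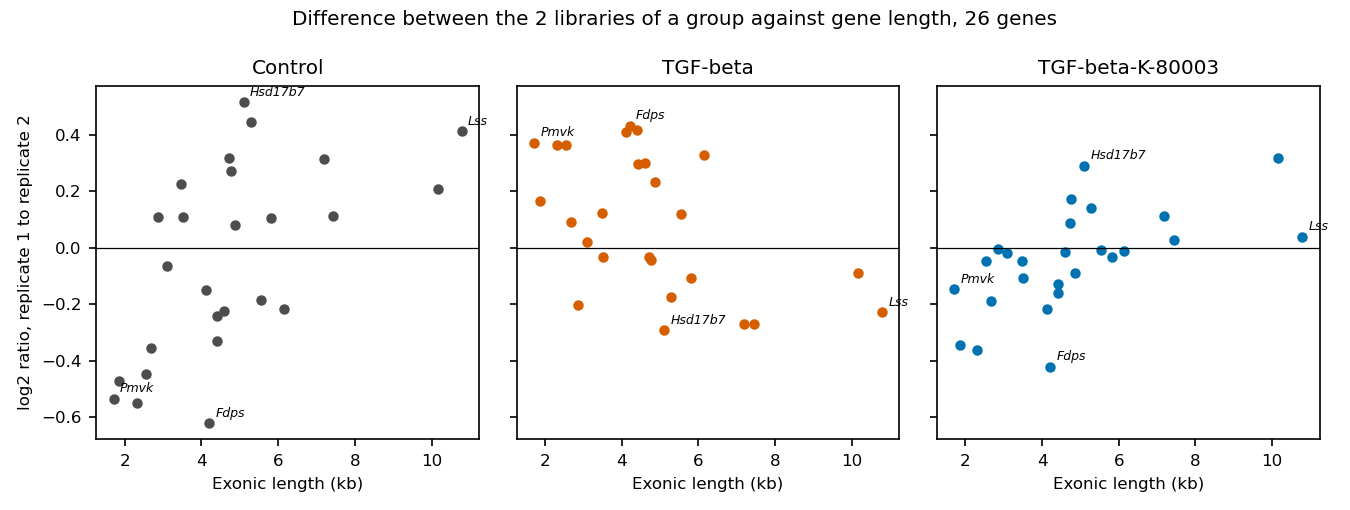
Log2 ratio of replicate 1 to replicate 2 in each group against exonic length in kilobases, 1 point a gene for the 26 genes, with Fdps, Hsd17b7, Lss and Pmvk named. Short genes such as Pmvk lie below 0 in Control and K-80003 and above 0 with TGF-beta, and rho over the 26 genes is 0.63, -0.55 and 0.70 in the order of the panels.

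Neighbouring pathways were read from lists of other genes, to show what changed around the route. With K-80003 against TGF-beta, 6 of 17 genes of sterol uptake, storage and intracellular transport were called higher and 0 lower by edgeR, DESeq2 and limma alike (median 0.27), against 2.78% higher and 7.32% lower of all genes tested. Stard5, a cytosolic cholesterol carrier, had 11.9 and 10.7 CPM with TGF-beta and 35.5 and 33.4 CPM with K-80003 (1.60, SE 0.15, edgeR adjusted p = 0.00179). Vldlr, the very low density lipoprotein receptor, had 7.24 and 8.63 CPM with TGF-beta and 44.2 and 39.6 CPM with K-80003 (2.40, SE 0.25, adjusted p = 0.00263). In both genes the K-80003 libraries were far above all others. Soat2, which esterifies cholesterol for storage, rose by 3.03 from a low level of 1.24 and 1.73 CPM, and Osbpl2, an oxysterol-binding protein relative, by 0.88 (edgeR adjusted p = 0.00624 and 0.014). The remaining called genes, named after their values were seen, were Soat1 (0.83) and Lrp8 (1.36). The count fell to 3 without TGF-beta replicate 1 or either K-80003 library; Stard5, Vldlr and Soat2 were called in all 6 fits with a library left out.

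Among sterol efflux and oxysterol genes, 1 of 10 tested rose (background 2.78%) and 3 fell (background 7.32%), with a median of -0.79. Star, which carries cholesterol into mitochondria, had 9.39 and 10.4 CPM with TGF-beta and 161 and 153 CPM with K-80003 (3.99, SE 0.16, edgeR adjusted p = 0.000215). Cyp27a1, the mitochondrial 27-hydroxylase, had 104 and 93.2 CPM with TGF-beta and 29.5 and 30.7 CPM with K-80003 (-1.71, SE 0.15, adjusted p = 0.00168). Abca1, the exporter of cholesterol to apolipoproteins, had 14.9 and 30.7 CPM with TGF-beta and 5.87 and 4.57 CPM with K-80003 (-2.12, SE 0.46, adjusted p = 0.0363). Ch25h, the cholesterol 25-hydroxylase, fell by 2.12 from 4.24 and 3.14 CPM (adjusted p = 0.041). Star and Cyp27a1 were called in all 6 fits with a library left out, while Abca1 lost its call without TGF-beta replicate 2 or either K-80003 library, and Ch25h without any library of the comparison. Of the 3 lower calls, 2 were thus kept without TGF-beta replicate 1 and 1 without TGF-beta replicate 2 or either K-80003 library.

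**Figure D5:**
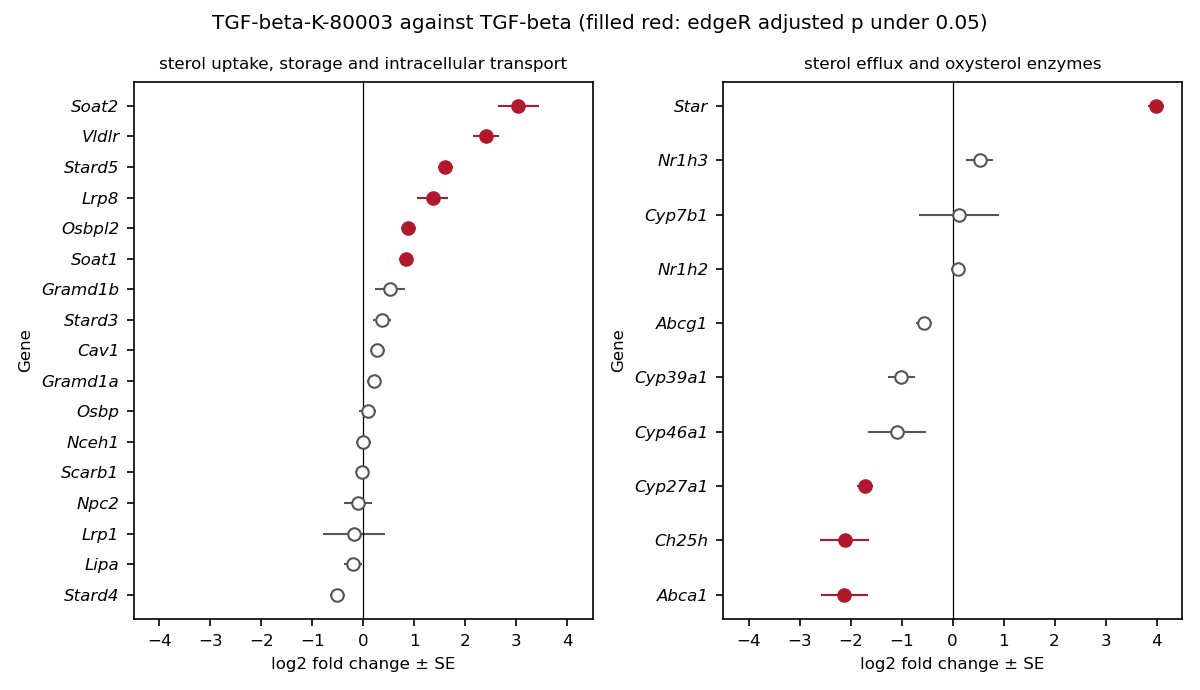
Log2 fold change with its SE of K-80003 against TGF-beta for the tested genes of sterol uptake, storage and transport (left) and of sterol efflux and oxysterol enzymes (right), sorted by size; filled red points had an edgeR adjusted p under 0.05. On the left 6 of 17 genes are filled, all above 0; on the right Star lies at 3.99 and Cyp27a1, Ch25h and Abca1 between -1.71 and -2.12.

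The other lists moved less in that comparison. Of the acetyl-CoA and ketone body genes, Bdh1, which interconverts the ketone bodies, rose (1.83, edgeR adjusted p = 0.0175; the call was lost without TGF-beta replicate 2 or K-80003 replicate 1, and the value was 0.87 under limma on log2(FPKM + 1)) and Oxct1, which uses them, fell (-0.68, adjusted p = 0.0284; the call was lost with any library of the comparison left out). The nonsterol branches of the mevalonate pathway, which make dolichol, ubiquinone and prenyl groups for proteins, had 0 of 16 called by edgeR, DESeq2 and limma, and 0 at an unadjusted p under 0.05 (median 0.000169). The processing and degradation machinery of the sterol sensors had 0 of 11 called by the same tools, with 4 at an unadjusted p under 0.05. Fatty acid synthesis and the SREBP1 arm had 0 of 14 tested genes called by edgeR and limma and 1 lower by DESeq2. Of the 14, 4 had an unadjusted p under 0.05. Over all genes tested, 3643 of 15987 had an unadjusted p under 0.05 in that comparison.

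With TGF-beta against Control, the called genes of these lists included Star, which fell by 1.42 on the log2 scale (edgeR adjusted p = 0.00911), and Cav1, the caveola protein, which rose by 1.00 (adjusted p = 0.0269). The Cav1 call was lost when any of the 6 libraries was left out, and the Star call without either TGF-beta library. With both agents against Control, the called genes of the machinery list included Syvn1, a ubiquitin ligase of the endoplasmic reticulum, which was higher (0.74), and Mylip, a ligase for lipoprotein receptors, lower (-0.79). Of 14 fatty acid genes tested, 2 were called lower (background 11.7%) and 0 higher (background 5.54%): Acacb (-1.19) and Fads2 (-0.51). The median of the 14 was 0.19, with 9 above 0 and 5 below. The call of Fads2 was lost with any of the 6 libraries left out, and those of Syvn1, Mylip and Acacb without either K-80003 library. The Syvn1 call was also lost without Control replicate 2, and the Mylip and Acacb calls without Control replicate 1.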

How the data were processed

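The deposited table holds, per gene and library, whole-number read counts, which the authors deposited without normalization, and FPKM values, which equal the deposited count over exonic length and library sum within 0.0051 for 100% of values. Tools named per the submitters' processing notes are HTSeq 0.6.1, Cufflinks 2.2.1, DESeq2, HISAT2 2.0.1, cutadapt 1.9.1 and SAMtools 0.1.19, with build GRCm39; their roles, the annotation and the strand setting are not given in the sources used here. The 26 members, the other lists and the tests were chosen with earlier results of these data known. Named were all members, up to 4 called genes a list (smallest p first) and the most abundant markers.

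Counts were tested with edgeR 4.0.16 (R 4.3.3): filterByExpr (minimum count 10, minimum total 15) kept 15987 genes and left out 0.13% of counts, libraries were scaled by TMM, and a quasi-likelihood fit to all 6 libraries without a block (3 residual degrees of freedom) gave two-sided p-values with Benjamini-Hochberg adjustment over all of them. All adjusted p-values are edgeR's unless another tool is named, and genes under 0.05 were called. The script was tested on simulated counts. Levels are TMM-scaled CPM; intervals are 95% and cover these libraries only. Floors of 3 counts and binomial intervals cover counting error only. Alternatives were other scalings, no filter, DESeq2 1.42.0, limma 3.58.1 on log2(FPKM + 1) and log2(FPKM + 0.1), the 4 libraries compared, a replicate block, and each library left out. The 3 comparisons share libraries, so their values are not independent.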

Additional observations from a re-analysis of the deposited data

How the results depend on the processing

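Each group had 2 libraries, and the least abundant member had at least 118 counts in every library; depth and the spread between libraries were not compared as limits on the calls. Between K-80003 and TGF-beta, the count of members called higher (1) went to 0 with upper-quartile scaling, without the low-count filter and on the 4 libraries compared. The count lower (3) went to 1 under limma on log2(FPKM + 1) and on log2(FPKM + 0.1), which left Nsdhl. Between K-80003 and Control, the count higher (1) went to 0 on the 4 libraries compared. The count lower (0) there went to 2 with upper-quartile scaling (Idi1 and Nsdhl), 2 without the filter (Hmgcs1 and Tm7sf2) and 1 under DESeq2 (Hmgcs1). The cause was not tested. With a library left out, members called higher were 0 in both comparisons with K-80003, and those lower against TGF-beta were 0 to 3.

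Over all genes, TGF-beta against Control gave 1143 calls without the filter, 846 under DESeq2 and 204 on the 4 libraries compared (470 in the main analysis), and K-80003 against TGF-beta gave 2492 without the filter (1616). With a library left out, the calls ran from 89 to 218 for TGF-beta against Control, 451 to 1661 for K-80003 against TGF-beta and 996 to 2397 for K-80003 against Control. Of the calls, 36.2% were higher for TGF-beta against Control and 27.5% for K-80003 against TGF-beta; under limma on log2(FPKM + 1) these shares were 22.9% and 40.2%, and on log2(FPKM + 0.1) 25.7% and 37.9%. On the last scale the median of all genes stood at -0.10 and 0.11 in these comparisons, and the members' median at -0.00404 and -0.20.

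The labels give the same replicate numbers in each group but no pairing. The difference of replicate 1 from 2 correlated over 15987 genes at -0.75 between Control and TGF-beta, 0.64 between Control and K-80003, and -0.64 between TGF-beta and K-80003. The replicates thus differed along a shared axis that ran in reverse order in TGF-beta; whether numbers were crossed or a batch was shared is not given in the labels and was not tested. With the replicate number as a replicate block, 0 members were called in any comparison, and 40, 792 and 1564 genes in all, in the order TGF-beta against Control, K-80003 against TGF-beta and K-80003 against Control. With the TGF-beta numbers crossed, a replicate block chosen after seeing the data, the calls were 3708, 5903 and 7352, with 3, 5 and 7 members higher and 1, 14 and 11 lower.

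Sign changes met only members that were not called in the comparison concerned. For TGF-beta against Control, log2 fold changes were -0.002682 (Dhcr7, median-of-ratios scaling), -0.002663 (Dhcr7, DESeq2), and with upper-quartile scaling -0.00644 (Fdps), -0.05022 (Dhcr7) and -0.003826 (Insig1). Under limma with pseudocounts of 1 and 0.1 they were -0.03254 and -0.03299 for Acly, -0.04804 and -0.051 for Pmvk, -0.05376 and -0.05617 for Fdps, -0.008524 and -0.008219 for Ebp, -0.09773 and -0.1156 for Dhcr7, -0.0699 and -0.07183 for Insig1, -0.04674 and -0.04869 for Srebf2, and, with 1, -0.001206 for Lss. For K-80003 against TGF-beta, Lbr was at 0.0004053 (median-of-ratios), 0.0004941 (DESeq2), 0.002044 (4 libraries), 0.08787 and 0.09663 (limma), and Sc5d at 0.09268 and 0.0967 (limma). Against Control, Cyp51 was at -0.01885 with upper-quartile scaling. With a library left out, TGF-beta against Control ran from -0.09511 to 0.3907 for Acat2, -0.1967 to 0.3649 for Pmvk, -0.2326 to 0.3975 for Fdps, -0.1661 to 0.1605 for Ggps1, -0.1566 to 0.4085 for Ebp, -0.1381 to 0.3142 for Acly, -0.2903 to 0.2055 for Mvd, -0.09131 to 0.3365 for Lss, -0.01127 to 0.5219 for Hsd17b7, -0.05704 to 0.05814 for Dhcr7 and -0.08639 to 0.2362 for Srebf2. K-80003 against TGF-beta ran from -0.3522 to 0.03063 for Msmo1, -0.1674 to 0.1192 for Sc5d, -0.001071 to 0.1764 for Insig2, -0.01991 to 0.3425 for Mvd and -0.1016 to 0.07601 for Lbr. K-80003 against Control ran from -0.1199 to 0.3661 for Mvd, -0.06169 to 0.1688 for Cyp51, -0.007796 to 0.193 for Msmo1 and -0.4833 to 0.07089 for Ebp.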
